A study of Mus musculus with 6 samples.

Results

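The genes described here build the MHC class I molecule and supply it with peptide: the peptide transporter genes Tap1 and Tap2, the loading factor Tapbp, the light chain B2m, the heavy chains H2-K1, H2-D1, H2-Q8 and H2-T3, and the immunoproteasome subunits Psmb8 and Psmb9. They are 10 of the 16593 genes named on the array and were read by 14 probes, taken by platform gene symbol, with every probe of each gene shown. The genes were selected on knockout and control values of these same arrays, so the differences between genotypes below are a description and carry no test.

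The study compared thymocytes of 3 mice in which T cells lose Klf4, a zinc-finger transcription factor, with thymocytes of 3 control mice. Every mouse carried floxed Klf4 on both alleles (Klf4fl/fl) on a C57/BL6 background and was 8 to 10 weeks old; the knockouts were CD4-Cre+ and the controls CD4-Cre-, so the controls differ by the absence of the transgene as well as by an intact Klf4. Cre is driven by Cd4 sequences and acts from the double-positive stage, when thymocytes carry both CD4 and CD8, so earlier thymocytes and the thymic stroma keep the gene. Freshly isolated CD4+ cells, labelled DP+SP4 thymocytes (DP for double-positive, SP4 for cells past that stage that keep CD4 alone), were enriched to a purity above 94% with either of a pair of commercial kits (the kit used for each mouse is not given), and total RNA of each mouse went to 1 Illumina MouseRef-8 v2 bead array.

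MHC class I molecules show peptides from the inside of a cell to CD8 T cells. The proteasome cuts proteins into peptides, the TAP transporter carries them into the endoplasmic reticulum, and tapasin with its partners holds the empty heavy chain and beta-2-microglobulin at the transporter until a peptide binds. Many of these genes answer to interferons and to the transactivator NLRC5. In mice, surface class I is low on DP thymocytes and increases as the cells mature.

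The sequences before the start of 5 of these genes are shown. They are the classical heavy chains and B2m, whose arrays overlapped, and Tap1 and H2-T3, whose arrays did not. That grouping comes from the contrast used to choose the genes, so nothing about the promoters is read from it. The windows of Tapbp, Psmb8 and Psmb9, whose arrays also overlapped, are not printed. Of the 10 genes, 8 matched a promoter window of 300 bases in RefSeq (mouse GRCm38.p6), and the 250 bases before the start are printed 5′ to 3′ in the direction of the gene. Tap2 and H2-Q8, whose arrays also did not overlap, had no window, so Tap1 and H2-T3 are only part of that group. The windows are chr17:34000348-34000597 on the minus strand for H2-K1, chr17:35262844-35263093 on the plus strand for H2-D1, chr17:36190152-36190401 on the minus strand for H2-T3, chr2:122147437-122147686 on the plus strand for B2m and chr17:34187306-34187555 on the plus strand for Tap1. Capitals mark matches, on either strand, to an interferon-type element (GAAANNGAA or AANNGAAAC), a kappaB element, a CRE-like core (TGACG) or a G-rich letter pattern of the kind KLF factors bind (GGGNGTGG). The letters were chosen after the windows had been read, and overlapping matches are merged in the capitals.
H2-K1: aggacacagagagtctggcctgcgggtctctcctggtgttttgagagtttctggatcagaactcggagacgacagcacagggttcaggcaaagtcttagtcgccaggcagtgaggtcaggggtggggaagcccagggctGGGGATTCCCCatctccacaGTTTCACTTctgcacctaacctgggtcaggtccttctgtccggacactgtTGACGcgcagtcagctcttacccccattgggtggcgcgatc
H2-D1: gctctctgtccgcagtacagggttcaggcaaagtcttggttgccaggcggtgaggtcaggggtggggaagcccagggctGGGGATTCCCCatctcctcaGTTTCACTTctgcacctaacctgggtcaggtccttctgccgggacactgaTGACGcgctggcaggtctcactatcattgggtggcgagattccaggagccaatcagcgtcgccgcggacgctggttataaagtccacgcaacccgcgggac
H2-T3: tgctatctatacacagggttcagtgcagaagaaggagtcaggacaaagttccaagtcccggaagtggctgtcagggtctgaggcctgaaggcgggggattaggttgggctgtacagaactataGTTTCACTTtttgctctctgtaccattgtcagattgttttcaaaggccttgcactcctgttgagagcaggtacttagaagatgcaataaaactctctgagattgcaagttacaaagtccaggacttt
B2m: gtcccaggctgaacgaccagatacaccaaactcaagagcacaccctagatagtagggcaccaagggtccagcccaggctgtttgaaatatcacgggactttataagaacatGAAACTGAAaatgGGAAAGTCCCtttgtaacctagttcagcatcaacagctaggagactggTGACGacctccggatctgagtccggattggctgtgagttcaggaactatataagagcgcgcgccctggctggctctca
Tap1: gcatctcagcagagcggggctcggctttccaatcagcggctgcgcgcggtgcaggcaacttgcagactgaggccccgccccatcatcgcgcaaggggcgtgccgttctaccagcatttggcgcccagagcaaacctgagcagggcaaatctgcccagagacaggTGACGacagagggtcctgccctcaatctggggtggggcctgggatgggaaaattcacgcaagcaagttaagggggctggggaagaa

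With the first transcribed base counted as 1 and the base before it as -1, H2-K1 held a kappaB match from -111, an AANNGAAAC match from -91 and a TGACG match from -41. Counted from another listed start of H2-K1, the same matches lay from -125, -105 and -55. H2-D1 held the same 3 kinds in the same order, from -171, -151 and -101, and shared with H2-K1 an identical run of 47 bases. B2m had a GAAANNGAA match from -139, a kappaB match from -126 and a TGACG match from -78. H2-T3 had an AANNGAAAC match from -127 and, with H2-K1, a longest identical run of 12 bases. Tap1 and Psmb9 are read in opposite directions from starts 225 bases apart, and the single TGACG match of Tap1, from -86, is the same site as that of Psmb9, from -144. The G-rich pattern matched 1 of these genes, Tapbp, from base 4 of its transcript. These letters also occur in other promoters: among 32851 promoter windows of the same length, 8.56% held GAAANNGAA, 5.77% AANNGAAAC, 4.51% a kappaB element, 20.8% TGACG and 17.6% GGGNGTGG. Of the 9 windows of the genes described here, with H2-K1 counted from each of its starts, 1, 4, 4, 6 and 1 held them in that order. The letters were chosen after the windows had been read, so nothing is read from that comparison. A match describes letters in the window and not a bound site.

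The deposited values are scores, standardised within each array (mean 0, SD 1), and whether intensities or their logarithms were standardised is unknown. Levels and differences are therefore given in z units (SDs of an array's probes) after quantile normalization between arrays, with no fold change, and no probe's level is set against another's. The label held for Klf4 in part: its probe ILMN_1241903 was lower in knockouts by a difference of -0.67 (limma, adjusted p = 0.00265) and ILMN_1221264 by -0.38 (limma, adjusted p = 0.0460), whereas ILMN_2999439 differed by 0.04 (limma, adjusted p = 0.944). Those 2 probes were the only ones of 15418 tested that limma called lower after Benjamini-Hochberg adjustment at 0.05 (0.013%), and 0 were called higher (0%), with 733 lower and 627 higher at an unadjusted p under 0.05. Control 3 stood apart from the other 5 mice in sex-linked genes, with an Xist level of 2.12 against -0.56 to -0.40 and an Eif2s3y level of -0.83 against 1.53 to 1.89, so values without it stand beside several results. Of the label's markers, the DP genes Cd8b1 and Rag1 had levels of 4.56 to 4.67 and 2.91 to 3.08, and Cd4 had 1.16 to 1.40. The probes of the DP marker Cd8a, at -0.83 to -0.75, and of the SP4 marker S1pr1, at -0.85 to -0.71, were in every array under -0.602, the limit below which a probe's mean was called dim and not tested. Bulk RNA cannot tell fewer cells of a type from less RNA per cell.

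Across the 14 probes the median difference (knockout minus control) was 0.076 z units, and 10 probes lay above 0. Over all probes of the array the median difference was 0.00012 and 50.1% lay above 0. For 4 probes, those of Tap1, Tap2, H2-Q8 and H2-T3, all knockout arrays lay above all control arrays, and for 0 they lay below. Over the whole array 6.13% of probes had all knockouts above and 6.52% all knockouts below; since the genes were chosen on this contrast, nothing is read from that comparison. The differences ran from -0.10 for a B2m probe to 0.28 for H2-Q8. Without control 3 the median difference was 0.063.

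**Figure D1:**
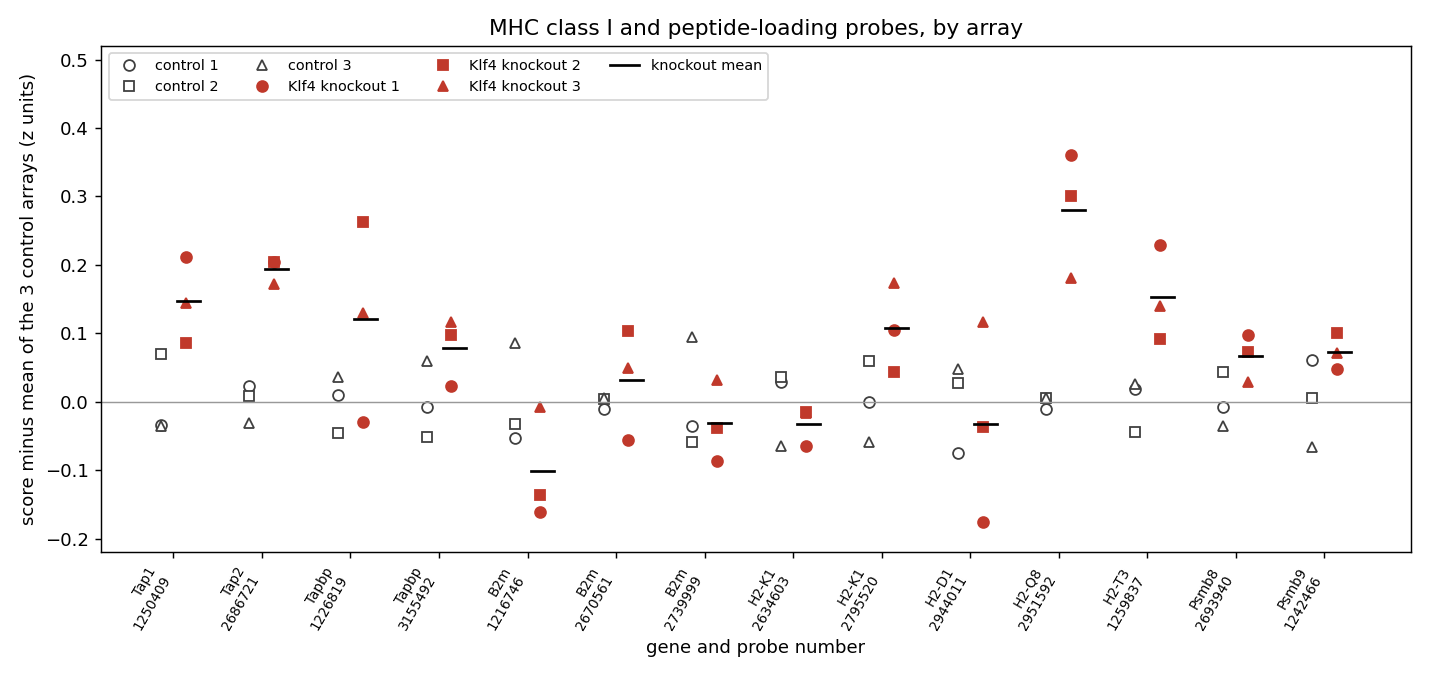
Level of each of the 14 probes in each array (y axis, score minus the mean of the 3 control arrays, in z units), by gene and probe number (x axis). Open symbols are controls 1 to 3, filled symbols knockouts 1 to 3, and the bar is the knockout mean; knockouts lie above all controls for Tap1, Tap2, H2-Q8 and H2-T3 and overlap them for the other 10 probes.

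Tap1 and Tap2 encode the subunits of the transporter. The Tap2 probe (ILMN_2686721) read 3.17, 3.17 and 3.14 in the knockouts and 2.99, 2.97 and 2.93 in the controls. Every knockout lay above every control, with means of 3.16 ± 0.019 and 2.97 ± 0.029 (SD, n = 3 each). The difference was 0.19 (SE 0.040), and it ran from 0.18 to 0.21 when any 1 array was left out. Its replicates were close together, with a pooled SD of 0.024 that is at the 4.15th percentile of the tested probes. On the deposited scores, without quantile normalization, the Tap2 difference was 0.23.

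The Tap1 probe (ILMN_1250409) read 1.12, 0.99 and 1.05 in the knockouts and 0.87, 0.97 and 0.87 in the controls. The lowest knockout, 0.991, was next to the highest control, 0.974, so the groups separated narrowly. The means were 1.05 ± 0.063 and 0.91 ± 0.060 (SD, n = 3 each), and the difference was 0.15 (SE 0.056). Leaving out 1 array gave 0.11 without knockout 1 to 0.18 without control 2.

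Tapbp encodes tapasin, which bridges the transporter and the empty class I molecule, and was read by a pair of probes. ILMN_1226819 gave 0.83, 1.13 and 0.99 in the knockouts and 0.87, 0.82 and 0.90 in the controls, a difference of 0.12 (SE 0.069). Knockout 1 lay within the control range, and leaving out knockout 2 reduced the difference to 0.050, while leaving out knockout 1 raised it to 0.20. ILMN_3155492 gave -0.40, -0.32 and -0.30 in the knockouts and -0.43, -0.47 and -0.36 in the controls, a difference of 0.079 (SE 0.047). The groups overlapped on both probes.

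B2m encodes beta-2-microglobulin, the light chain shared by all class I molecules. Its probe ILMN_1216746 read 3.75, 3.77 and 3.90 in the knockouts and 3.85, 3.88 and 3.99 in the controls, a difference of -0.10 (SE 0.049). Its probe ILMN_2739999 read 3.82, 3.87 and 3.94 in the knockouts and 3.87, 3.85 and 4.00 in the controls, a difference of -0.032 (SE 0.047). Genotypes overlapped on both, which lie near the top of the scale, where quantile normalization raised control 3. On the deposited scores the differences were -0.015 and 0.057, so the direction of the second probe turned; it also turned without control 3, at 0.016. The remaining probe, ILMN_2670561, was dim, with a difference of 0.032 (SE 0.040) that became -0.0040 without knockout 2. The 3 probes therefore gave no common direction for B2m.

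H2-K1 and H2-D1 encode classical heavy chains, which present peptides to most CD8 T cells. The H2-K1 probe ILMN_2795520 read 0.15, 0.086 and 0.22 in the knockouts and 0.042, 0.10 and -0.017 in the controls, a difference of 0.11 (SE 0.056) with 1 control above the lowest knockout. The H2-K1 probe ILMN_2634603 read -0.63, -0.58 and -0.58 in the knockouts and -0.54, -0.53 and -0.63 in the controls, a difference of -0.033 (SE 0.041). The H2-K1 probes thus differed in sign, each with overlapping groups. The H2-D1 probe ILMN_2944011 read 0.50, 0.64 and 0.79 in the knockouts and 0.60, 0.70 and 0.72 in the controls. The knockouts spanned the whole control range, and the difference was -0.032 (SE 0.071), or 0.040 without knockout 1. Replicates scattered widely on this probe, whose pooled SD was at the 93.1st percentile of the tested probes.

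H2-Q8 and H2-T3 are class Ib heavy chain genes, relatives of the classical genes with less variable sequence; H2-T3 encodes the thymus leukaemia antigen, a ligand of CD8 alpha homodimers. The H2-Q8 probe (ILMN_2951592) read 1.37, 1.31 and 1.19 in the knockouts and 1.003, 1.019 and 1.018 in the controls. All knockouts lay above all controls, and the controls were nearly equal, with means of 1.29 ± 0.092 and 1.01 ± 0.0094 (SD, n = 3 each). The difference of 0.28 (SE 0.056) was the largest of the 14 probes and ran from 0.24 without knockout 1 to 0.33 without knockout 3. H2-Q genes are near-identical in sequence, so the transcript behind this probe is uncertain; the H2-Q7 probe ILMN_2924419 gave a difference of 0.046 (SE 0.059; limma, adjusted p = 0.860).

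The H2-T3 probe (ILMN_1259837) read -0.59, -0.73 and -0.68 in the knockouts and -0.80, -0.86 and -0.79 in the controls. All knockouts lay above all controls, with a difference of 0.15 (SE 0.042) that ran from 0.12 to 0.18 when 1 array was left out. The probe was dim: its mean over the 6 arrays, -0.74, was under the limit of -0.602, the 40th percentile of probe means, below which probes were not tested. In percentiles of an array it moved from 6.17 in controls to 30.3 in knockouts, a wide step because scores are crowded at the dim end. The B2m probe ILMN_2670561, at a mean of -0.82, was the other of these probes under the limit, and the H2-K1 probe ILMN_2634603, at -0.58, lay just above it. The remaining 12 probes passed, which left 9 of the 10 genes tested; limma called 0 of the 12 in either direction, beside 0% and 0.013% of all tested probes.

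Psmb8 and Psmb9 encode catalytic subunits that replace their constitutive counterparts in the immunoproteasome. The Psmb8 probe (ILMN_2693940) read 1.46, 1.44 and 1.39 in the knockouts and 1.36, 1.41 and 1.33 in the controls, a difference of 0.066 (SE 0.050). The Psmb9 probe (ILMN_1242466) read 2.03, 2.09 and 2.06 in the knockouts and 2.05, 1.99 and 1.92 in the controls, a difference of 0.073 (SE 0.049), or 0.040 without control 3. On both probes the highest control lay above the lowest knockout.

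**Figure D2:**
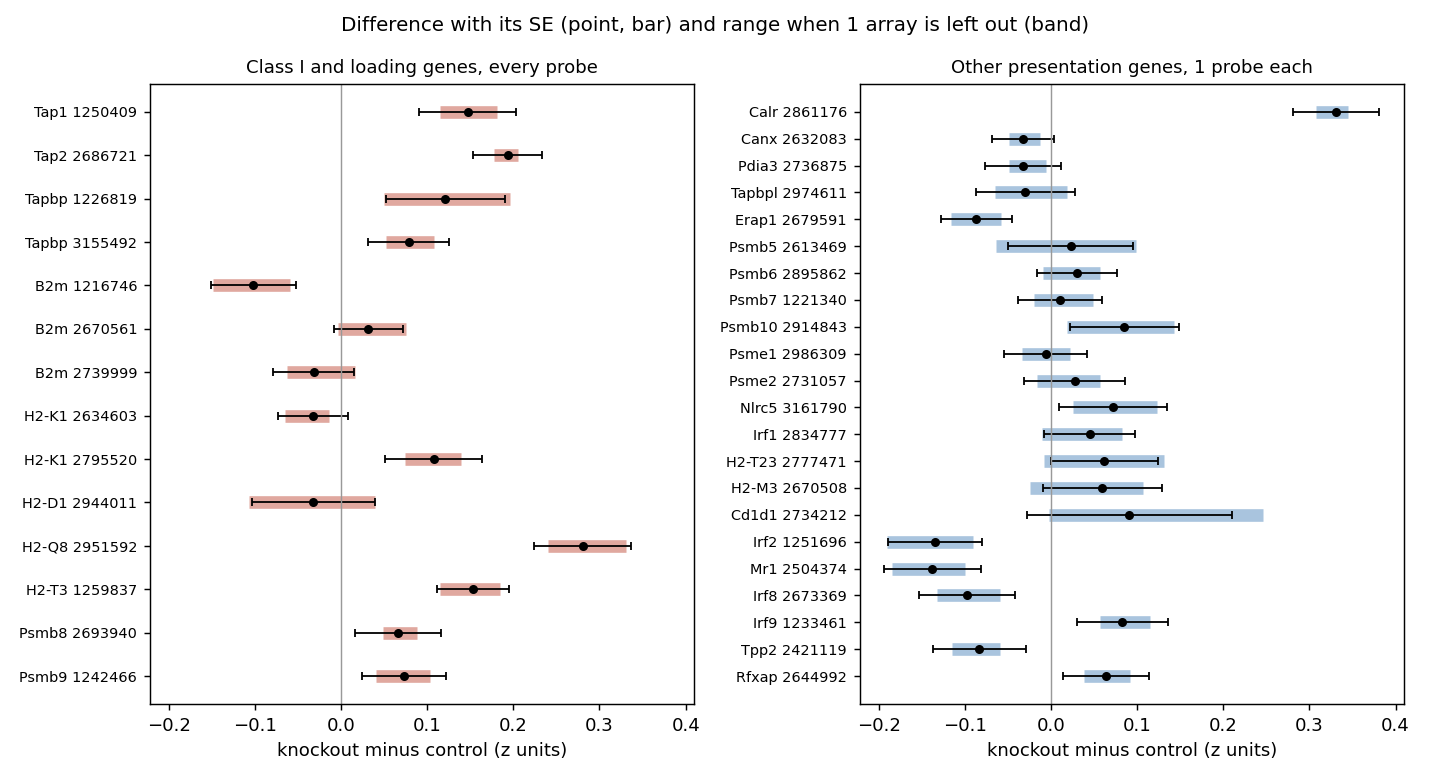
Difference in level (x axis, knockout minus control, in z units) of the 14 class I and loading probes (left) and of the other named presentation genes (right). The point is the difference, the bar its limma SE on either side and the band the range when 1 array is left out; the left differences run from -0.10 for B2m to 0.28 for H2-Q8, and Calr on the right is at 0.33.

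By role, the centred level (a probe's value minus its own mean over the arrays) averaged over the 4 transport and loading probes was 0.035, 0.095 and 0.073 in the knockouts and -0.069, -0.073 and -0.060 in the controls. The 2 class Ib probes gave 0.19, 0.087 and 0.052 in the knockouts and -0.10, -0.13 and -0.093 in the controls. In both roles the knockouts lay above the controls. The 3 light chain probes gave -0.085, -0.0071 and 0.041 in the knockouts and -0.016, -0.012 and 0.079 in the controls. The 3 classical heavy chain probes gave -0.053, -0.010 and 0.084 against -0.023, 0.034 and -0.032, and in these roles the genotypes overlapped. The immunoproteasome probes gave 0.037, 0.052 and 0.015 against -0.0084, -0.010 and -0.086. In this role too the averaged knockouts lay above the controls, although the genotypes overlapped on each probe alone. Over all 14 probes the means were 0.012, 0.043 and 0.057 in the knockouts and -0.044, -0.036 and -0.033 in the controls. No array was high or low throughout: knockout 1 had the highest value on 5 probes (on Tap2 tied with knockout 2) and the lowest on another 5.

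In the gene order of RefSeq, 9 of these genes are on chromosome 17 and B2m is on chromosome 2. Psmb9, Tap1, Psmb8 and Tap2 follow one another with 0 genes between, and their differences were 0.073, 0.15, 0.066 and 0.19 in that order. The other chromosome 17 genes listed between Tapbp and H2-T3 were taken without the genes of the presentation lists described next, which hold other class I heavy chains. Any class I relative outside those lists was kept. Of those left, 78 were tested, and 40 lay above 0 and 38 below, with a median difference of 0.0043. Limma called 0 in either direction (3 higher and 2 lower at an unadjusted p under 0.05).

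Other genes of class I presentation, which the choice of genes above did not use, were tested in the same limma fit. This list too was drawn up with earlier results of these data known. Of 65 listed, 54 were on the array and 46 were tested; 24 lay above 0 and 22 below, the median difference was 0.0045, and limma called 0 (1 higher and 2 lower at an unadjusted p under 0.05). Calr, which encodes the peptide-loading chaperone calreticulin, read 1.28, 1.26 and 1.27 in the knockouts and 0.95, 0.97 and 0.89 in the controls. All knockouts lay above all controls, with a difference of 0.33 (SE 0.050; limma, adjusted p = 0.0791), and robust variance estimation brought the adjusted p to 0.0441. Over the alternatives tried, the adjusted p of Calr ranged from 0.0441 to 0.380, and it was 0.187 without control 3.

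The other 8 loading and trimming genes on the array gave smaller differences. The chaperones Canx, a dim probe, and Pdia3 gave -0.032 and -0.033, and the tapasin relative Tapbpl gave -0.030, or 0.019 without control 2. Erap1, which trims peptides in the endoplasmic reticulum, gave -0.087 (SE 0.041; limma, adjusted p = 0.578), with all knockouts narrowly below all controls. The cytosolic peptidase gene Tpp2 gave -0.083. In that list 2 of 8 tested genes lay above 0 and the median difference was -0.031.

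Among proteasome genes 5 of 8 lay above 0, with a median difference of 0.017. Psmb10, the remaining immunoproteasome subunit, gave 0.085 (SE 0.064; limma, adjusted p = 0.726), while the constitutive subunits Psmb5, Psmb6 and Psmb7 gave 0.023, 0.031 and 0.011. The proteasome activator genes Psme1 and Psme2 gave -0.0061 and 0.027. Single arrays decided these values: without control 3 Psmb10 gave 0.018, Psmb5 -0.064, Psmb6 -0.0089 and Psme2 -0.016, and without control 2 Psmb10 gave 0.14. Psmb7 ran from -0.019 without control 1 to 0.048 without knockout 1, and Psme1 from -0.034 without knockout 2 to 0.023 without control 2. None of the 8 passed the test, and limma's unadjusted p was under 0.05 for 0 in either direction.

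Of 16 tested class I heavy chain relatives 8 lay above 0 and 8 below, with a median difference of 0.0016. H2-T23, which encodes Qa-1, gave 0.062 (a second probe gave -0.024), H2-M3, which presents formylated peptides, 0.060, and Cd1d1, which presents lipids to NKT cells, 0.091. None of the 3 kept its sign without knockout 3, at -0.0083 for H2-T23, -0.024 for H2-M3 and -0.0024 for Cd1d1, and without control 3 Cd1d1 gave 0.25. Mr1, which presents vitamin B metabolites to MAIT cells, read -0.024, -0.083 and 0.087 in the knockouts and 0.14, 0.13 and 0.12 in the controls. All Mr1 knockouts lay below the controls, with a difference of -0.14 (SE 0.056; limma, adjusted p = 0.498), which does not pass.

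Of 14 tested regulators 9 lay above 0, with a median difference of 0.0097. Nlrc5, the transactivator of class I genes, gave 0.072 (SE 0.063; limma, adjusted p = 0.781) and the interferon-response factor Irf1 gave 0.045. Without control 3 Nlrc5 gave 0.12 and Irf1 -0.010; Nlrc5 gave 0.025 without control 2, and Irf1 gave 0.0070 without knockout 2 and 0.11 on the deposited scores. Irf2 gave -0.13 (SE 0.054; limma, adjusted p = 0.498), and Irf8 gave -0.098, with all knockouts narrowly below all controls. Irf9, which acts in type I interferon signalling, gave 0.083. Rfxap, part of the RFX complex at MHC promoters, gave 0.064.

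**Figure D3:**
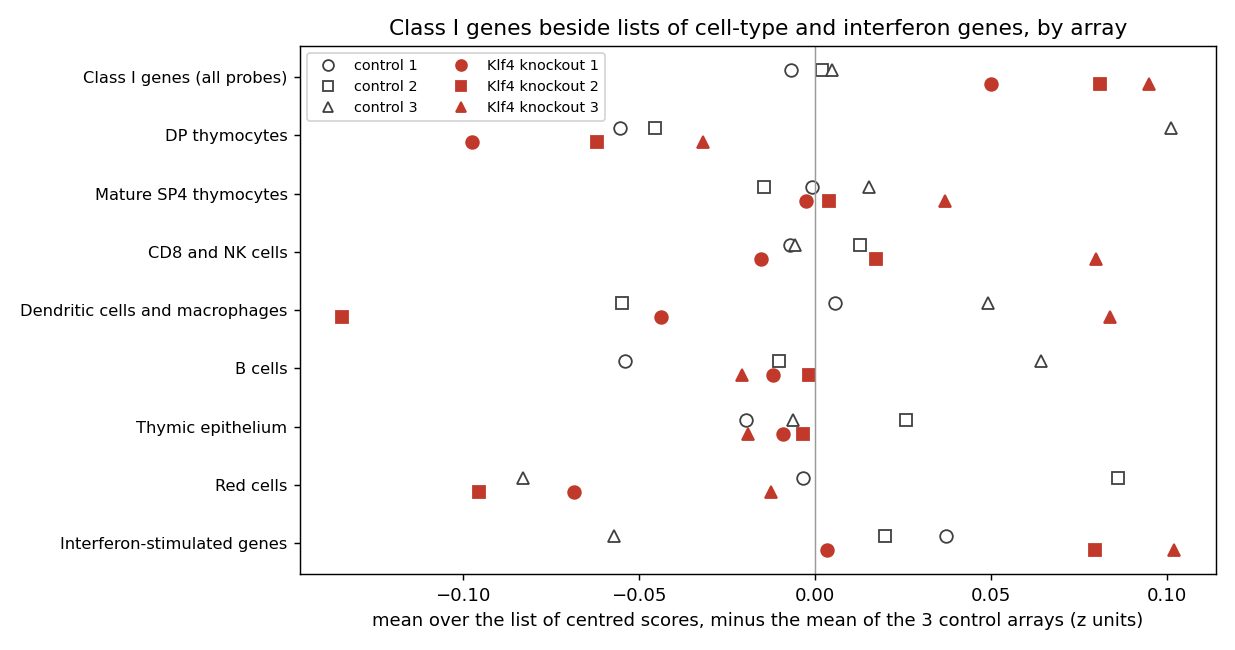
Mean centred score of each gene list in each array, relative to the mean of the 3 control arrays (x axis, in z units), with open symbols for controls 1 to 3 and filled symbols for knockouts 1 to 3. All 3 knockouts lie above all controls for the class I genes, which were chosen on this contrast, so nothing is read from that separation. The genotypes overlap for the interferon-stimulated genes, where knockout 1 lies below controls 1 and 2.

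Lists of other genes are given beside the class I genes, and limma called 0 of their genes. Of 34 interferon-stimulated genes outside the set, 32 were on the array, 4 of them dim (Ifit1, Oas1a, Ifih1 and Xaf1), and of the 28 tested 23 lay above 0 with a median difference of 0.060; limma called 0, and 7 were higher at an unadjusted p under 0.05. Their summed level ranged from 15.2 to 18.4 in knockouts and from 13.3 to 16.3 in controls. The list's median level was 0.50, 0.52 and 0.53 in the knockouts and 0.48, 0.45 and 0.31 in the controls, with control 3 lowest; as a mean centred score the groups overlapped, knockout 1 lying below controls 1 and 2. Without control 3 the median difference was 0.023, and without knockout 1 it was 0.11. The RNA sensor Ddx58 gave 0.17 (SE 0.051) and the antiviral gene Ifit3 0.23 (SE 0.068), both with limma's adjusted p = 0.397. The part of interferon-stimulated expression in the class I differences was not tested.

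DP thymocyte markers, 11 of 12 on the array, had summed levels of 19.8 to 20.5 in knockouts and 20.3 to 21.99 in controls; 2 of 10 tested lay above 0, with a median difference of -0.065, or -0.019 without control 3. Mature SP4 markers, 13 of 14 on the array, had summed levels of 14.1 to 14.6 in knockouts and 13.98 to 14.4 in controls, with 8 of 12 tested above 0 and a median difference of 0.018. Markers of dendritic cells and macrophages, which carry abundant class I, had 15 of 16 on the array and summed levels of 5.70 to 8.97 in knockouts and 6.89 to 8.45 in controls; 2 of 11 tested lay above 0, with a median difference of -0.041. In this list Itgax, Itgam, Flt3 and Xcr1 were under the dim limit. The 11 that passed it included Lyz2, Adgre1, C1qa, C1qb, Siglech and Batf3 as well as MHC class II genes. Of the DP markers 1 of 11 on the array was dim, and of the SP4 markers 1 of 13. Of the markers of CD8 and NK cells 5 of 8, of red cells 2 of 2, of B cells 1 of 4 and of thymic epithelium 1 of 5 on the array were dim. Limma called 0 genes of these lists. At an unadjusted p under 0.05, 3 DP markers were lower, 2 SP4 markers higher and 1 lower. Bcl2, 1 of the higher SP4 markers, was counted from its highest-mean probe, with a difference of 0.18. Its other probes gave -0.046 to 0.079, with overlapping groups. The part of these markers in the class I differences was not tested.

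The genes whose pattern over the 6 arrays was closest to the mean centred pattern of the 12 tested class I probes, among 10390 other genes, were Adar, Nckipsd, Llgl2, Pola2 and Anapc4. Closeness was the mean absolute distance between centred patterns, 0.0089 for Adar to 0.010 for Anapc4 against a median of 0.059 over all those genes. Their differences were 0.072, 0.068, 0.064, 0.070 and 0.067 in that order. The class I probes themselves lay from 0.029 for the Tapbp probe ILMN_3155492 to 0.11 for H2-Q8 from their own mean pattern. The named genes were the closest of all those searched, so nothing is read from the class I probes lying farther. Tapbp ILMN_1226819, Tap2, H2-D1, B2m ILMN_1216746 and H2-Q8 lay beyond the median of 0.059, and the other tested class I probes within it.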

How the data were processed

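Total RNA of 6 mice, 3 per genotype, was measured on 1 bead array each, and the number of arrays limits the precision. The deposited values are scores, standardised by the authors within each array (mean 0, SD 1), as the values show. The submitters' processing notes name GenomeStudio 2010.1 with no role; of background correction and earlier steps nothing is given in the sources used here. Deposited medians were -0.493 to -0.487. The quartiles of the arrays differed by up to 6.93% of the interquartile range, above the 5% set for it, so the scores were quantile-normalized. The table held 0 columns of other samples.

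Dim probes, with a mean below the 40th percentile, were removed. The other 15418 were fitted in limma (version 3.58.1, under R 4.3.3) by lmFit and trended eBayes, two-sided, with Benjamini-Hochberg adjustment over all of them and a threshold of 0.05. Probe symbols were those of the GEO platform annotation, brought up to date by RefSeq GRCm38.p6: 23978 probes had 1 symbol, 0 several and 1719 none. The genes, lists and tests were chosen with earlier results of these data known. Named were every probe of the 10 genes, 17 preset presentation genes where measured plus the 6 others with the smallest p, the 5 closest patterns and Klf4. Ddx58, Ifit3, H2-Q7 and the Bcl2 probes were named after their values were seen. Lists used the probe with the highest mean per gene. Alternatives were the deposited scores, median centring, other dim filters, no trend, robust fitting, array weights, a replicate block and leaving out each array. The fit was tested on simulated data.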

Additional observations from a re-analysis of the deposited data

How the results depend on the processing

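Leaving out 1 array at a time gave 0 to 1 probes called higher, with 1 (Zfp869) without control 3, and 1 to 4 called lower: 4 without knockout 1 (Klf4, Kansl1l and a pair of Gm525 probes), and 1 (Klf4) without knockout 3, control 1 or control 2. Robust fitting called 1 probe higher, Calr, which was also the 1 other presentation gene called. The stricter dim filter (60th percentile) called 0 probes lower, and no trend called 1. These genes were named after their values were seen. Knockout and control share numbers in the labels, and same-numbered arrays had correlations of deviations of -0.034, 0.17 and 0.035. Knockouts 2 and 3 were each closest to the control of the same number, whereas knockout 1 was closest to control 3. The main fit did not take the numbers as pairs, and the replicate block is the alternative that does. With the replicate block, 2 probes were called higher (Bach1 and Fosb), and 0 of the class I probes.

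The median difference of the 14 class I probes was 0.061 to 0.096 with 1 array left out and 0.075 on the deposited scores. It was 0.11 with the highest-mean probe of each gene and 0.086 with the median over the probes of each gene. Of the 14 probes, 11 kept their sign under all 14 alternatives, and the exceptions were a pair of B2m probes and H2-D1. The Tap2 difference was 0.23 under the deposited scores and under median centring. Recomputing the medians of the marker and interferon lists was added after seeing the data: that of the dendritic cell and macrophage list was 0.050 without knockout 2 and -0.11 without knockout 3. The causes were not tested. Probes near the dim limit carry little signal, and depth in beads is unknown.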
